A study of Homo sapiens with 6 samples.

Results

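The genes described here encode vesicle trafficking proteins, chosen by name from a list of AGO2-bound RNA regions (peaks) in 22RV1 cells. Every peak was taken whose gene name starts with RAB, VPS, SEC, SNX, STX, TMED or ARF and a digit, or with VAMP or GOLG. This gave 98 of the 7772 peaks, in 54 of the 3659 named genes. The cells, an established human prostate cancer line, had been transfected with 20 nM of a miR-194 mimic (3 libraries) or of a negative control (3 libraries), and were irradiated with ultraviolet light 24 h later. AGO2, the Argonaute protein loaded with microRNAs, was pulled down from both groups with the same antibody, and the RNA bound to it was sequenced. The deposited table holds 1 merged list with 1 score per peak and no value per library. Mimic and control cells therefore could not be compared, read depth is unknown, and no replicate error can be given. Each score is the authors' own and is used to order and describe the peaks of the list, nothing more.

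Membrane traffic moves proteins between organelles in vesicles. Coat proteins such as the SEC proteins of COPII bud a vesicle from the endoplasmic reticulum, RAB and ARF GTPases mark membranes and recruit effectors, golgins tether the vesicle, and SNAREs (STX, VAMP) fuse it with its target. SNX and VPS proteins sort cargo at endosomes, and TMED proteins are cargo receptors between the endoplasmic reticulum and the Golgi. A microRNA guides AGO2 mainly through its seed, a short stretch near its 5′ end that pairs with the target RNA.

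The name rule held a few genes whose role lies elsewhere. VPS72 encodes a subunit of chromatin complexes, SEC61A1 and SEC62 belong to the protein translocation channel of the endoplasmic reticulum, and SEC11A is a signal peptidase. RAB11B-AS1 and VPS9D1-AS1 are antisense RNAs. All 54 names were found in GENCODE 29, and their peaks lay on the strand of the gene. The RAB family had 25 peaks in 15 genes, VPS 22 in 13, SEC 21 in 10, SNX 16 in 8, GOLG 8 in 3 and TMED 4 in 3. ARF and STX had 1 peak each, and no VAMP peak was listed. Of the 54 genes, 33 had 1 peak, 12 had 2 and 9 had 3 or more.

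The sequences shown are the microRNA and sites under peaks that are described in detail below, with full and partial seed matches. The first line is mature miR-194-5p (RefSeq, GRCh38.p14), with its seed, bases 2 to 8, in capitals. The other lines are 30-base stretches of the transcripts (GENCODE 29, matched by RefSeq accession), written 5′ to 3′ on the transcribed strand. Capitals mark the bases on which the site class rests, which are those opposite the seed and, where present, a final A opposite base 1 of the microRNA. A 7mer-m8 reads CTGTTAC, a 7mer-A1 site reads TGTTACA, an 8mer site is CTGTTACA and the shorter 6mer site is TGTTAC. In a variant site, one that lacks the 6mer, the marked letters are GTTACA.
hsa-miR-194-5p: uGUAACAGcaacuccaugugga
RAB14 exon 4, 8mer: ggacaggagcgatttagggCTGTTACAcgg
RAB14 exon 6, 7mer-A1: gatttggaggcacagagagaTGTTACAtat
RAB14 3′ UTR, variant: ataccctgactcccaaagttaGTTACAgtg
RAB39A 3′ UTR, 7mer-A1: ttcagagcatgatgcttactTGTTACActa
RAB10 exon 4, 6mer: caatgaagatgtggaaagaaTGTTACtagg
SEC16A exon 11, 7mer-m8: gaccgacattgcggagcttCTGTTACgaga
SEC22A exon 7, 7mer-A1: catgtgactgtgggagcattTGTTACActa
SEC24B exon 7, 7mer-A1: taagcttcctttaggattgtTGTTACAtcc
SEC24C exon 8, 6mer: aaccggggtacagagccattTGTTACtgga
SNX1 exon 8, 7mer-A1: gattgtaaatcatcctaccaTGTTACAgga
SNX19 exon 1, variant: tagcagccccagtattcctaaGTTACAgtg
SNX27 exon 5, variant: gcattaccagatggaacaacgGTTACAgtc
VPS37B 3′ UTR, 8mer: cttgtccaagttcattgccCTGTTACAggt
VPS13D exon 13, 8mer: gcagcgaggtacagtgactCTGTTACAcaa
VPS13D exon 34, variant: cccacctgtcctggagattcaGTTACAagc
GOLGB1 exon 13, variant: aaaatcagaagaggtatttcaGTTACAaga
TMED7 3′ UTR, 7mer-m8: aaaatttttgaaatcactaCTGTTACctgt

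A 7mer match (a 7mer-m8, a 7mer-A1 or an 8mer, listed on the peak's own strand) was present in 19 of the 98 peaks (19.4%, exact 95% interval 12.1 to 28.6%), against 13.4% of all peaks. The interval covers counting error only, several peaks can come from 1 gene, and the share of all peaks lies inside it. With the 98 peaks' own mix of exons, 3′ UTRs, introns and other parts, the rates of all peaks would give 14.8%. The matches were 6 8mers (6.12% of the peaks, against 4.16% of all peaks), 5 7mer-m8 and 8 7mer-A1 sites. Another 5 peaks held a 6mer and 8 a variant, so that any site was listed in 32 peaks (32.7%, against 19.4% of all peaks). These 2 shares are not adjusted for the mix of parts. Any site was listed in 37.7% of the exon peaks of the set, against 26.0% of all exon peaks. In 3′ UTRs the shares were 40.0% and 27.5%, and in introns 15.4% and 4.8%. Of the 8 variants, 7 held GTTACA, which lacks 1 base of the 6mer at its 5′ end and keeps the A opposite the first base of the microRNA. Over all peaks 146 of 204 variants (71.6%) held it. At least 1 matched peak was present in 17 of the 54 genes (31.5%), against 23.6% of all genes with a peak.

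The counts by family rest on few peaks each. RAB peaks held a match in 8 of 25 (32.0%, interval 14.95 to 53.5%), VPS peaks in 5 of 22 (22.7%, 7.82 to 45.4%) and SEC peaks in 4 of 21 (19.05%, 5.45 to 41.9%). Only 1 of 16 SNX peaks held one (6.25%, 0.158 to 30.2%), and 0 of 8 GOLG peaks, which allows a share of up to 36.9%. The TMED peaks held 1 in 4. All these intervals overlap and each holds the 13.4% of all peaks, except that of RAB, whose lower bound is 14.95%. Without the RAB14 peaks the RAB interval (12.58 to 56.55%) holds it too. With only the highest peak of each gene the shares were 40% in RAB and in SEC, 33.3% in TMED, 30.8% in VPS and 12.5% in SNX, against 19.95% over all genes, so that the order of RAB above SEC was lost. The 8 RAB matches fell in 6 genes, and each match of the other families lay in a gene of its own.

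Trafficking peaks had a median score of 16 (interquartile range 12 to 28), against 15 (12 to 23) over all peaks. A score at or above 23, the upper quartile of all peaks, was reached by 32 of the 98 (32.7%, against 26.5% of all peaks). The median was 19 in RAB, 16 in SEC and VPS, and 15 in SNX and GOLG. It was 25.5 over the 4 TMED peaks. Peaks with a 7mer match had a median score of 28, and those without had 15. Over all peaks these medians were 31 and 14. The gap was widest in the SEC family, where the 4 matched peaks had a median of 87 and the other 17 of 13. Matched peaks had a median length of 86 nt and unmatched ones of 69 nt (92 and 63 nt over all peaks). The part of this length in the scores was not tested.

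**Figure D1:**
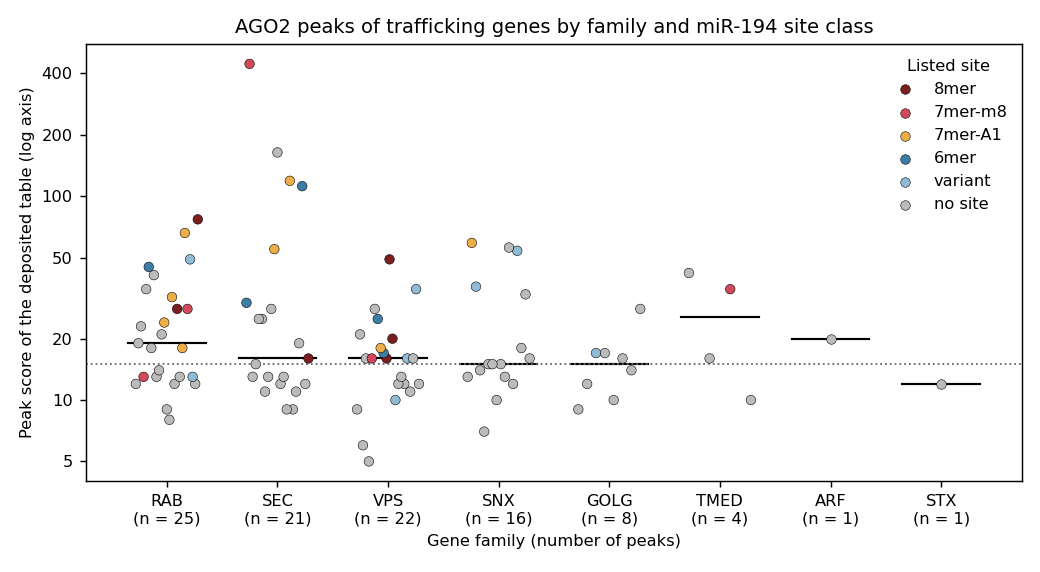
Each point is 1 peak of a trafficking gene, placed by gene family (x axis, with the number of peaks) and by the score of the deposited table (y axis, log scale). Colour gives the class of the listed miR-194 site, black lines are family medians and the dotted line is the median of all peaks, 15. The highest points of the SEC and VPS families carry a 7mer or 8mer match, whereas all GOLG points lie at or below 28 with no such match.

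Most of these peaks lay inside exons (the table's class for exons outside the UTRs). Exons held 53 of the 98 (54.1%, interval 43.7 to 64.2%), against 33.0% of all peaks. The 3′ UTRs held 20 (20.4%, against 23%) and introns 13 (13.3%, against 20.4%). The shares of all peaks count 401 intergenic and 210 wrong-strand peaks, which have no gene name and could not be members. Another 5 peaks lay in non-coding transcripts, 4 at transcript ends, 2 at promoters and 1 in a 5′ UTR. RAB peaks were the exception among the larger families, with 9 of 25 in 3′ UTRs (36.0%) and 7 in exons (28%). SEC peaks lay in exons in 16 of 21 (76.2%), SNX peaks in 12 of 16 (75%) and GOLG peaks in 7 of 8. No SNX peak lay in a 3′ UTR.

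**Figure D2:**
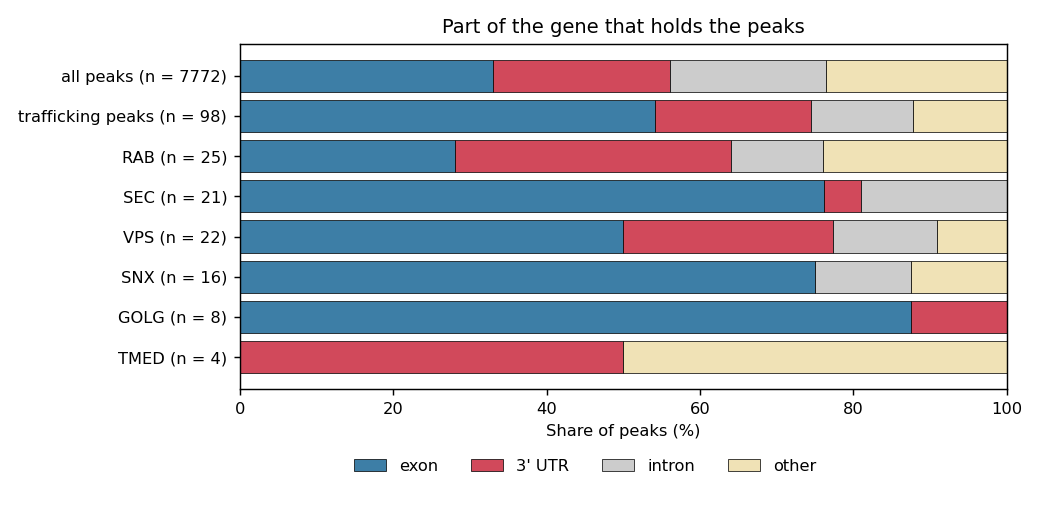
Bars give the share of peaks (x axis, percent) in exons, 3′ UTRs, introns and all other annotated parts, for all 7772 peaks, the 98 trafficking peaks and each family with 4 or more peaks. The exon share is 33.0% over all peaks, 54.1% over the trafficking peaks and 76.2% in the SEC family, and the 3′ UTR share is widest among the RAB and TMED bars.

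In exons 9 of 53 peaks held a 7mer match (17.0%, against 15.0% of all exon peaks), with a median score of 55 against 15.5 for the others. In 3′ UTRs 6 of 20 did (30%, interval 11.9 to 54.3%, against 19.8% of all 3′ UTR peaks). The median scores there were 33.5 with a match and 16.5 without. Among the RAB 3′ UTR peaks alone the order was reversed, with 30 over 4 matched peaks and 35 over 5 unmatched ones. The 2 TMED peaks were also reversed (35 and 42), and the VPS peaks were not (49 and 12). Introns held 2 of 13 (15.4%, interval 1.92 to 45.45%, against 4.61% of all intron peaks). The 3′ UTR and intron intervals both hold the share of all peaks in that part. Both intron matches were 8mers with a score of 16, in SEC23IP and VPS13B. SEC23IP encodes a partner of the COPII coat, and VPS13B a lipid transfer protein. Sites lay close to the middle of the peak, at a median distance of 7.5 nt, and 15 of 19 were within 20 nt. Over all matched peaks the median was 11 nt, and 71.9% were within 20 nt.

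RAB14, which acts between the Golgi and early endosomes, had 6 peaks, the most of any gene in the set. The highest, with a score of 77, lay in exon 4 of 8 (chr9:123952840-123952925, hg19, minus strand) and held the 8mer. A peak in exon 6 (chr9:123945590-123945666) scored 24 and held the 7mer-A1. A peak of 4 nt beside it scored 9 with no site. These 2 matches were also the only 7mers in the RAB14 coding sequence and 3′ UTR (transcript with the longest coding sequence). The 3 peaks of its 3′ UTR scored 49, 35 and 19, and the first of them, chr9:123941655-123941744, held the variant printed above. The peak with the variant (49) and a 3′ UTR peak with no site (35) thus both scored higher than the exon 6 peak with a full 7mer.

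RAB39A, a GTPase of endosomes and phagosomes, had adjoining 3′ UTR peaks of 66 and 41. The first (chr11:107833217-107833316, plus strand) held the 7mer-A1 and the second no site. Its 3′ UTR holds 2 7mers, and 1 listed peak held a match. RAB2A, which acts between the endoplasmic reticulum and the Golgi, also had adjoining 3′ UTR peaks, separated by 3 nt. They scored 28 with an 8mer and 32 with a 7mer-A1, and these were the only 7mers of that 3′ UTR and coding sequence. RAB14 and RAB2A were the only genes of the set with a match in more than 1 peak. RAB10, a GTPase of exocytic transport, had a single peak in exon 4 of 6 (chr2:26350014-26350102, plus strand) with a score of 45 and a 6mer. Over these 4 RAB genes, 5 of 11 peaks held a match and the median score was 35. The matched peaks had a median of 32 and the other 6 of 38, the reverse of the order in the whole set. The 4 genes were named with the set from earlier results, so this is a description of chosen genes.

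The other RAB peaks scored 28 or less. RAB11FIP3, a RAB11 effector, had a 7mer-m8 at a transcript end (28). RAB23, a GTPase known from Hedgehog signalling, had a 7mer-A1 in a non-coding transcript (18). RAB22A, an early endosome GTPase, had 2 separate 3′ UTR peaks, 13 with a 7mer-m8 and 12 with no site. RAB6A (13), a Golgi GTPase, held a variant. No site was listed in RAB7A (23), the late endosome GTPase, in RAB5A (12), its early endosome counterpart, or in RAB11FIP4 (21 and 14). The same held for RAB3IP (18), RAB3GAP1 (13), RAB18 (12 and 8) and RAB11B-AS1 (13). Leaving out RAB14, the share of RAB peaks with a match was 6 of 19 (31.6%, interval 12.58 to 56.55%). This interval holds the 13.4% of all peaks.

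SEC16A, the scaffold of endoplasmic reticulum exit sites where COPII vesicles form, had the highest peak of the set. It lay in exon 11 of 29 (chr9:139357498-139357598, minus strand), held the 7mer-m8 and scored 446, which ranks 25 among all 7772 peaks. A short peak of 26 nt in exon 10 (chr9:139357916-139357941) scored 164 with no site. The other SEC16A peaks scored 12 and 9. SEC16A thus had both a matched and an unmatched peak above every peak of the other families.

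SEC22A, an endoplasmic reticulum protein related to the SNARE SEC22B, had a 7mer-A1 in the last exon (chr3:122990426-122990555, plus strand) with a score of 119, beside an adjoining peak of 11 with no site. SEC24C and SEC24B are the cargo-binding subunits of COPII. The SEC24C peak in exon 8 of 24 (chr10:75523250-75523359, plus strand) scored 112 with a 6mer, and the gene's other 3 peaks scored 13, 11 and 9. SEC24B had 1 peak, in exon 7 of 23 (chr4:110431204-110431267, plus strand), which scored 55 with a 7mer-A1. SEC31A, of the outer COPII coat, had a 6mer peak of 30 and an unmatched one of 15. SEC22C, a relative of SEC22A, had 4 exon peaks of 28, 25, 13 and 13 with no site. SEC11A (25), SEC61A1 (19) and SEC62 (12), of protein translocation and processing, held no site either. The 7 genes of coat assembly and transport held 4 matches in 18 peaks (22.2%, interval 6.41 to 47.6%, which holds the 13.4% of all peaks). The 3 genes of translocation and processing held 0 in 3 (up to 70.8%), too few for a comparison.

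VPS37B, a subunit of the ESCRT-I complex that sorts ubiquitinated cargo, had 4 peaks, all in its 3′ UTR. The peak with the 8mer (chr12:123350581-123350661, minus strand) scored 49, and the others scored 16, 9 and 5 with no site. VPS13 genes encode large lipid transfer proteins at membrane contacts. VPS13D had 5 peaks, in which the 8mer peak of exon 13 (chr1:12322031-12322124, plus strand) scored 20 and a variant peak in exon 34 scored 35. The other VPS13D peaks scored 16, 12 and 6. VPS13D is the 1 gene of the set with a match and more than 1 peak whose highest peak held no match. VPS13A scored 18 with a 7mer-A1 in exon 68 of 72, the intron peak of VPS13B scored 16, and VPS13C scored 13 with no site.

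VPS51 and VPS54, subunits of the GARP tether, differed in their sites. VPS51 scored 28 at a transcript end with none, and VPS54 scored 16 in an exon with a 7mer-m8. VPS35, the core of the retromer that retrieves cargo from endosomes, had a 6mer peak of 25 and a variant peak of 10. VPS36, of ESCRT-II, had a 6mer peak of 17 and an unmatched one of 12, and VPS4B, the ATPase that disassembles ESCRT, a variant of 16. VPS72 (21), VPS37C (12) and VPS9D1-AS1 (11) held no site.

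Sorting nexins had a median score of 15, as over all peaks, and 1 peak with a 7mer match. SNX1, a membrane-bending nexin that works with the retromer, had that match, a 7mer-A1 in exon 8 of 15 (chr15:64419931-64420005, plus strand) with a score of 59, and an unmatched peak of 15 in exon 7. SNX6, which pairs with SNX1, scored 56 in exon 6 of 13 (chr14:35066757-35066811, minus strand) with no site. SNX19, a nexin of the endolysosomal system, had 5 peaks in exon 1. The one with the variant (chr11:130784831-130785030, minus strand) scored 54, and the others scored 18, 14, 13 and 7 with no site. SNX27, the PDZ-containing cargo adaptor of the retromer, also had its highest score, 36, at a variant peak, in exon 5. Its other peaks lay in different parts of the gene, with 13 in exon 12 and 16 and 10 at the promoter, and held no site. SNX14 (33), SNX9 and SNX18 (15 each, both nexins of endocytosis), and SNX4 (12) held no site.

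Golgin peaks reached at most 28 and those of the TMED cargo receptors 42. GOLGB1 (giantin), a long tether of the Golgi, had 5 exon peaks of 28, 17, 17, 16 and 9, of which 1 peak of 17 held a variant. GOLGA1 (14) and GOLGA3 (12 and 10) held no site. TMED10 had the highest TMED peak, 42, in its 3′ UTR (chr14:75599380-75599457, minus strand) with no site. TMED7 scored 35 with a 7mer-m8 in its 3′ UTR (chr5:114949808-114949943, minus strand), 52 nt from the peak's middle. TMED5 scored 16 and 10 with none. ARF6, a GTPase of the plasma membrane, scored 20 in its 3′ UTR, and STX3, a SNARE of the apical membrane, scored 12 in an intron, both with no site.

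**Figure D3:**
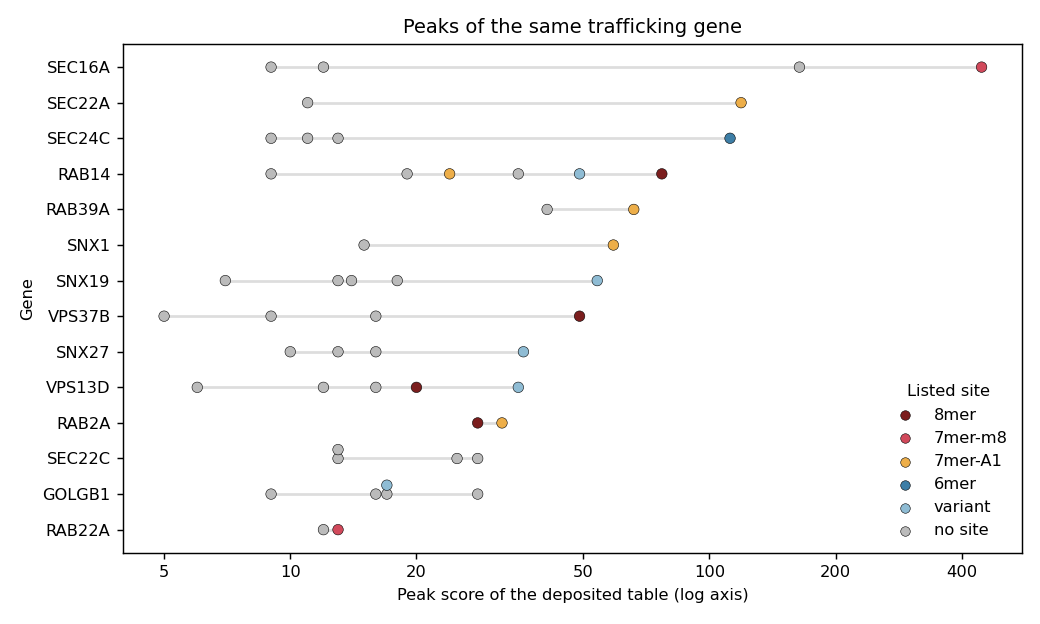
Each row is a trafficking gene with 3 or more peaks, or with 2 peaks and a 7mer match, and each point is a peak at its score (x axis, log scale), coloured by site class. In SEC16A, SEC22A, RAB14, RAB39A, SNX1 and VPS37B the peak furthest to the right holds a 7mer or 8mer match, in SEC24C it holds a 6mer, and in SNX19, SNX27 and VPS13D a variant, whereas in SEC22C and GOLGB1 the highest peak, 28 in both, holds no site.

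Peaks with and without a match were also compared within genes. Of the 9 genes with a match and more than 1 peak, RAB2A had a match in both, which fixes its outcome. In the other 8, which had peaks with and without a match, the highest peak held one in 7. Over all genes of that kind it did in 426 of 550 (77.5%). In 8 genes the same exon class or 3′ UTR held peaks with and without a match, and the median score was higher with the match in 8 of 8. The differences ran from 0.12 in RAB22A and 0.32 in VPS13D to 2.44 in VPS37B, 2.49 in RAB14 and 3.44 in SEC22A on the log2 scale. Their median was 2.17, and over all 368 such pairs it was 1.49, with the match higher in 321 (87.2%). In exons the median was 2.37 over 5 genes, against 1.48 over all genes. In 3′ UTRs it was 0.69 over 3 genes, against 1.51. VPS13D is the 1 gene of the 8 whose highest unmatched peak, 35, was above its matched one, 20.

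Many of these peaks adjoin, which bears on what counts as a separate peak. The 98 peaks held 15 pairs at most 10 nt apart. A site of any class was listed on 1 side only in 5 of the pairs, and that side scored higher in 5 of 5. These were RAB39A (66 and 41), VPS37B (49 and 9), SEC22A (119 and 11) and 2 pairs of RAB14 (49 and 19, 24 and 9). All but the RAB14 pair of 49 and 19 also enter the within-gene comparison above, so the counts overlap. Over all 1504 such pairs, 467 had a site on 1 side, which scored higher in 391 (83.7%). Another 2 pairs lay in consecutive exons at a gap within 5 nt of the intron between them, so that they adjoin in the spliced RNA. These were SNX1 (15 and 59, 479 nt apart) and VPS13D (16 and 35, 572 nt apart). Over all genes there were 62 such pairs. The SNX1 and VPS13D peaks also enter the within-gene comparison. Whether adjoining peaks stem from the same bound fragments was not tested.

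**Figure D4:**
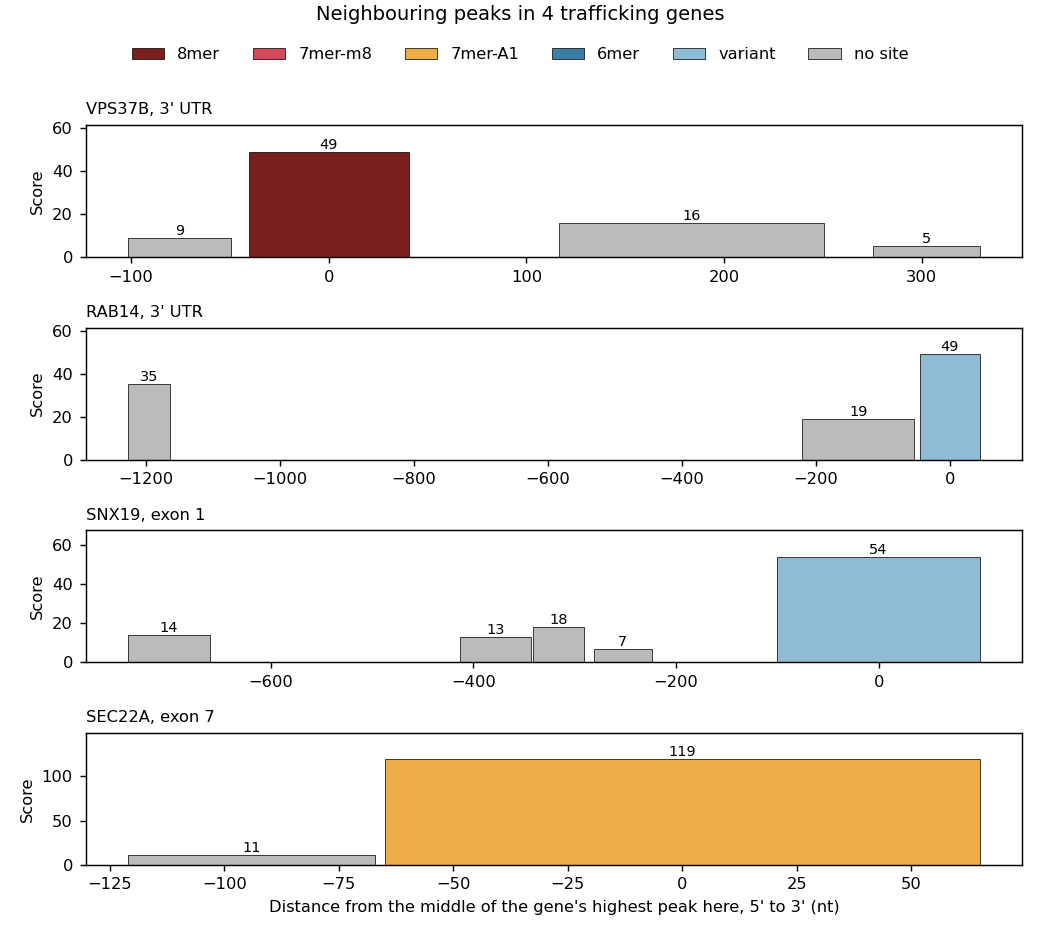
Peaks of 4 genes are drawn to scale along the transcript (x axis, nt from the middle of the highest peak shown, 5′ to 3′), with the score as bar height (y axis, from 0) and colour for the site class. The bar with a site is the highest in each panel, at 49 in VPS37B and in the RAB14 3′ UTR, 54 in SNX19 and 119 in SEC22A. The 4 genes were picked for display, and the order is not general. In GOLGB1 exon 13, not shown, a peak with no site (28) scored above one with a variant (17).

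The sites placed in transcripts allowed a look at pairing beyond the seed. All 28 exon and 3′ UTR sites of the set were found in their GENCODE transcripts, 20 in coding sequence and 8 in a 3′ UTR. The tetramer TGGA, which pairs with bases 13 to 16 of miR-194, stood in the 20 bases before the site in 4 of the 15 sites with a 7mer match (26.7%), against 92 of 635 (14.5%) over all peaks. The predicted duplex energy (RNAduplex) had a median of -13.2 kcal/mol in the 15 sites and -12.9 kcal/mol in the 635. It ran from -8.4 kcal/mol in SNX1 to -19.6 kcal/mol in SEC24B, with -18.8 kcal/mol in SEC16A and -18.5 kcal/mol in the RAB14 8mer. A tetramer match or a low energy is a property of the letters and does not show pairing in the cell.

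The families were also set against the annotation. Of the 243 protein-coding genes of the 9 families in GENCODE 29, 52 had a peak (21.4%), against 17.3% of all protein-coding genes, and 17 a matched peak (7.0% against 4.18%). SEC had peaks in 10 of 29 genes and VPS in 12 of 35, whereas RAB had them in 14 of 75, GOLG in 3 of 34 and STX in 1 of 17. The GOLG genes include near-identical copies, to which reads may not be assigned uniquely, and the part of this in the GOLG count was not tested. None of the 7 VAMP genes had a peak. None had a 7mer in the coding sequence or 3′ UTR of the transcript with the longest coding sequence. Other transcripts were not searched, and that of VAMP2 had a 3′ UTR of only 39 nt.

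A coding sequence or 3′ UTR with a 7mer (CTGTTAC or TGTTACA on the transcribed strand) was found in 69 of the 241 family genes with a coding transcript. A peak of any kind was listed for 29 of the 69 (42.0%) and for 23 of the 172 without a 7mer (13.4%). Over all protein-coding genes these shares were 29.6% and 13.9%. In these families the median length of coding sequence and 3′ UTR was 4213 nt with a 7mer and 2290 nt without, and the part of length and of expression in the shares was not tested. The genes with a peak held 31 7mers in their 3′ UTRs and 24 in their coding sequences. Beside these stood 6 3′ UTR peaks and 9 exon peaks with a listed match, a count of peaks and not of 7mers, and peaks cover only a part of each transcript.

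Single genes, chosen after their values were seen, stood at both ends. RAB14 and RAB2A had each of their 2 7mers in a peak. The TMED5 3′ UTR held 6 7mers and neither of its peaks a match. VPS13A held 4 in its coding sequence and 4 in its 3′ UTR, and its only peak held 1. RAB21, an endosomal GTPase, held 4 in its 3′ UTR, and STX6 and STX7, endosomal SNAREs, held 3 each, with no peak listed for any of them. RAB and STX thus include genes with several 7mers and no listed peak, and the expression of these genes in 22RV1 cells was not measured here.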

How the data were processed

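RNA bound to AGO2 was sequenced from 22RV1 cells, in 3 mimic and 3 control libraries. Per the submitters' processing notes, cutadapt 1.8.1, FastQC, TopHat2 2.0.9, SAMtools and MACS2 were used with the build hg19, in an order not given. The authors deposited 1 score per merged peak. What the score measures, and which libraries were pooled, is not stated in the labels or the table used here. There were 0 columns of other samples.

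Gene names were stripped of blanks before the name rule was applied. Listed sites on the peak's own strand were classed by their bases. The search behind the listing is not described, and its frame differs between 3′ UTRs, exons and introns, so shares are not directly comparable between these parts. No test was made, since the list has no replicate. Shares have exact Clopper-Pearson 95% intervals. GENCODE 29 served for gene names, strands and sequence (per gene, the transcript with the longest coding sequence). No coordinate was converted between builds.

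Named genes were, per family, up to 3 with the highest peak and up to 3 with the highest matched peak, 4 preset RAB genes, the genes with most peaks or with several matches, and up to 2 per group of a wider list. The other genes complete the account. The members and lists were chosen with earlier results of these data known. The within-gene, adjoining-peak, duplex and transcript comparisons were added after seeing the data. Python 3.11.15, numpy 2.4.6, pandas 2.3.3, scipy 1.17.1, matplotlib 3.10.9 and RNAduplex 2.7.2 were used, and the site classing was checked on simulated data.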

Additional observations from a re-analysis of the deposited data

How the results depend on the processing

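No paired analysis was possible because the deposited list holds no value per library. For the same reason no replicate could be left out, depth is unknown and error between cultures cannot be given. A 7mer match, present in 19.4% of the peaks, stood at 6.12% for 8mers alone (4.16% over all peaks), 33.3% in peaks scoring above the median of all peaks (23.9%) and 29.6% with 1 peak a gene (19.95%). The median score, 16, was 20.5 with 1 peak a gene and 19.5 in 3′ UTRs alone, and that of unmatched peaks, 15, was 16.5 in 3′ UTRs. The 8mer setting narrows the match, and the other settings here take fewer peaks. The cause of these changes was not tested. The other 23 values stayed within the 95% interval of the share or median, or within 1.5 times the count. With a digit required after ARF only, 111 peaks in 60 genes were members and 18.9% held a match. Without RAB14 the share was 18.5%. Family shares rest on at most 25 peaks.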

Other observations

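Trafficking genes outside the name rule were counted from a list of 158 genes. Of these, 53 had a peak and 13 a 7mer match (24.5% of those with a peak, against 23.6% of all genes with a peak), and their 115 peaks had a median score of 15, the same as all peaks. The list as a whole thus lay at the background, and the counts of its groups are to be read against that share. Clathrin and its adaptors, which coat vesicles at the plasma membrane and the Golgi, were represented by 10 of 23 genes, 3 of them with a match. CLTC, the clathrin heavy chain, had 12 peaks. Its highest peak scored 155 with no site and its highest matched peak, a 7mer-m8 in an exon, 150. AP1B1 also had its match (23) below another peak, a variant of 26, and AP2B1, an adaptor subunit of endocytosis, scored 28 with an 8mer. Among 35 tethers 9 were in the list, and 2 had a match, both of them 8mers in exons: EXOC2 of the exocyst (95) and TRIP11, a golgin (74).

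Peaks of cargo receptors came from 7 of 16 genes, with matches in 3, led by ERGIC2 (559, 8mer in the 3′ UTR) and CNIH1 (119, 7mer-m8 at a transcript end). SNAREs and fusion factors outside the rule gave 6 of 23 genes and matches in 2, STXBP5 (36, 8mer) and GOSR1 (15, 7mer-A1). Regulators of RAB and ARF gave 12 of 32 genes and matches in 3, all at or below 22. ARFGEF1, an exchange factor of ARF at the Golgi, had the highest of them (22, 8mer), and ARFGEF2 and TBC1D22A scored 12 each. The COPI coat (5 of 9 genes with a peak), COPII partners (2 of 6) and ESCRT genes (2 of 14) had no match. Each group is small, and no test between groups was made.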
